A study of Ananas comosus with 78 samples.

Results

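Of the 27024 pineapple genes in the count files, 238 were lower at the stem apex over several days after ethephon and showed no called change at the base of the "D" leaf. They were chosen by measured values. Each gene was called lower at the ethephon-treated apex, at an adjusted p under 0.05 and a change of at least 2-fold, in 3 or more of the 7 samplings from day 1 to day 8. It was called higher in none of these, was not called in either direction at 6 h, and was not called in the leaf base at any of 5 samplings. Since these calls chose the genes, the values of the 13 ethephon and water comparisons are given below as a description, with no test.

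The libraries came from plants of Ananas comosus (PRI 73-50, named 'MD1' in one field of the labels and 'MD2' in another) in a commercial field. Ethephon-treated plants had received 50 mg of ethephon in 10 ml in the plant centre and control plants 10 ml of water. Stem apices were sampled 6 h after treatment, daily for 6 days and again on day 8. Bases of the "D" leaf, the tallest leaf that growers use as a standard, were sampled 6 h after treatment and daily for 4 days. Every one of the 26 groups held 3 libraries, and 3 plants were pooled for each library.

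Ethephon breaks down to ethylene inside plant tissue, and growers use it to force pineapple fields into flower at one time. Ethylene is perceived by membrane receptors whose signal ends in transcription factors of the EIN3 and AP2/ERF families. The shoot apex holds the meristem that makes leaves before, and the inflorescence after, the floral transition, while the leaf base is a source of expanding leaf tissue in the same plant. Genes that stay low at the treated apex are therefore read here against the water-treated apex of the same day.

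The libraries held 1418697 to 13180667 counts each, and the 3 ethephon-treated apices of day 8 were among the shallowest, with 1418697 to 1930038. Levels are in CPM, counts scaled to a common library total with TMM factors. Those of 2 KNOTTED-1-like and 2 WUSCHEL genes, of families known from meristems, were summed. The sum was 44.9 to 599 CPM in ethephon-treated and 40.8 to 237 CPM in water-treated apices. It was at most 5.56 CPM in any leaf base library. At the apex, KNOTTED-1-like gene Aco015873 made up most of it. WUSCHEL gene Aco015382 was not called between the tissues at 6 h, and Aco006233 only after ethephon. Leaf markers were not checked, as no named gene fitted that list. The libraries of one sampling at the apex never shared a sequencing lane between ethephon and water, so that lane and treatment cannot be told apart there. In the files nearly all of the 238 genes are bare identifiers: the sources used here give a name or role for 13, of which 11 say more than "hypothetical" or "unknown function".

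At the apex, the 238 genes had a median level (log2 of CPM + 0.25) of 3.31 ± 0.33 in ethephon-treated and 3.41 ± 0.05 in water-treated plants at 6 h (mean ± SD of 3 libraries, here and below). By day 1 the median level was 2.67 ± 0.02 after ethephon and 3.59 ± 0.05 after water. The largest gap, on day 2, was 2.51 ± 0.05 after ethephon against 3.64 ± 0.04 after water. It stayed between 2.35 and 2.56 in ethephon-treated apices from day 3 to day 6, and between 3.28 and 3.45 in water-treated ones. Day 8 differed, with 2.98 ± 0.06 after ethephon and 3.43 ± 0.08 after water. The 3 ethephon libraries of day 8 had lane codes that no other group had, so lane and day cannot be told apart for them. From day 1 on, no ethephon library of a day was above any water library of that day. In bulk samples such as these, fewer cells of a type and less RNA per cell cannot be told apart.

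**Figure D1:**
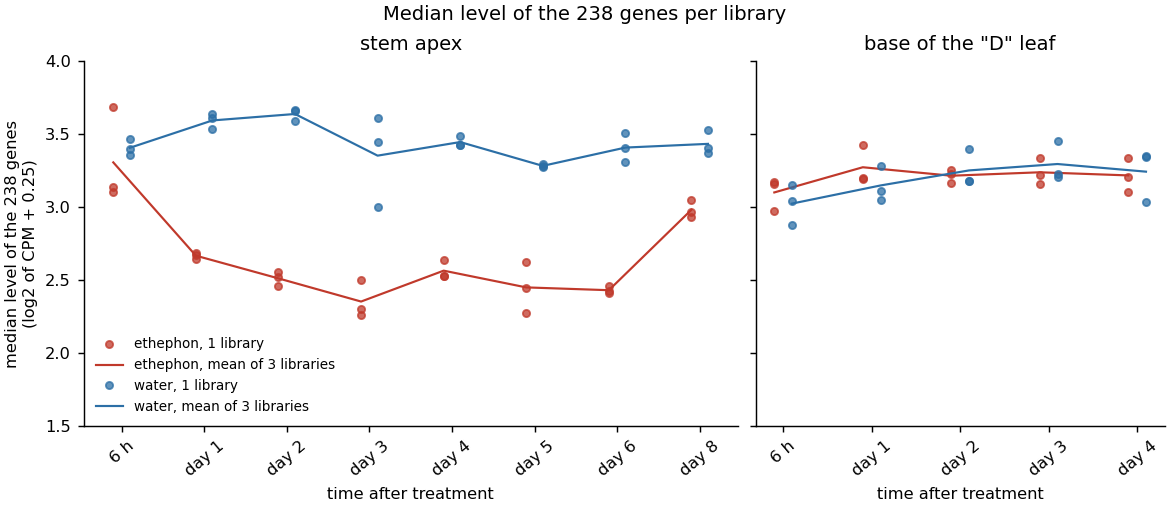
Median level of the 238 genes (y axis, log2 of CPM + 0.25) in each library by time after treatment (x axis), at the stem apex on the left and the leaf base on the right; points are libraries and lines join the means of 3. At the apex the ethephon means lie between 2.35 and 2.98 from day 1 on and the water means between 3.28 and 3.64, while at the leaf base both lie between 3.02 and 3.29.

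The summed level of the KNOTTED-1-like and WUSCHEL genes moved at the same time and the other way. It was 44.9 to 72.5 CPM in ethephon-treated and 40.8 to 73.6 CPM in water-treated apices at 6 h. On day 3 it was 274 to 301 CPM after ethephon, against 60.6 to 106 CPM after water, and on day 6 it was 406 to 599 CPM against 151 to 224 CPM. On day 8 the ranges were 285 to 363 CPM after ethephon and 200.2 to 237 CPM after water. Most of this sum was Aco015873. On day 8 only Aco015382 was called higher (log2 fold change 1.87), and Aco006233 stood at 0.15. The part of a changed mix of cells in the lower level of the 238 genes was not tested.

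Read within one treatment, the medians of the 238 genes moved mostly on the ethephon side, in libraries that the rule used. Against 6 h, the median change of the 238 genes in ethephon-treated apices (log2) was -0.54, -0.85, -0.98, -0.79, -0.83 and -0.99 from day 1 to day 6, and -0.28 on day 8. In water-treated apices the same medians ran between -0.21 and 0.31. For the 17051 genes of at least 1 CPM on average in water-treated apices, the medians ran from -0.04 to 0.01 after ethephon. After water they ran from 0.03 to 0.08. On day 5, 211 of the 238 genes were below their 6 h level after ethephon and 140 after water. The share of all genes below their 6 h level is not given. The ethephon-treated apices of 6 h, day 1 and day 5 shared a lane, and the water-treated apices of 6 h to day 5 shared another.

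On day 1, 122 of the 238 genes (51.3%) were called lower, where 3.63% of all genes tested were. The count was 163 (68.5%; 5.34% of all genes) on day 2, 112 (47.1%; 7.19%) on day 3 and 131 (55.0%; 2.12%) on day 4. It was 81 (34.0%; 1.23%) on day 5, 170 (71.4%; 2.59%) on day 6 and 76 (31.9%; 4.73%) on day 8. The rule used these calls, and the share of all genes is given only as the scale of each day. The median log2 fold change of the 238 genes (ethephon over water) was -0.18 at 6 h. From day 1 to day 6 it was -1.04, -1.26, -1.04, -1.05, -0.85 and -1.19, and on day 8 it was -0.44. The median of all genes in these comparisons was between -0.061 and 0.035. The day 5 count fell to 49 without water replicate 1.

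**Figure D2:**
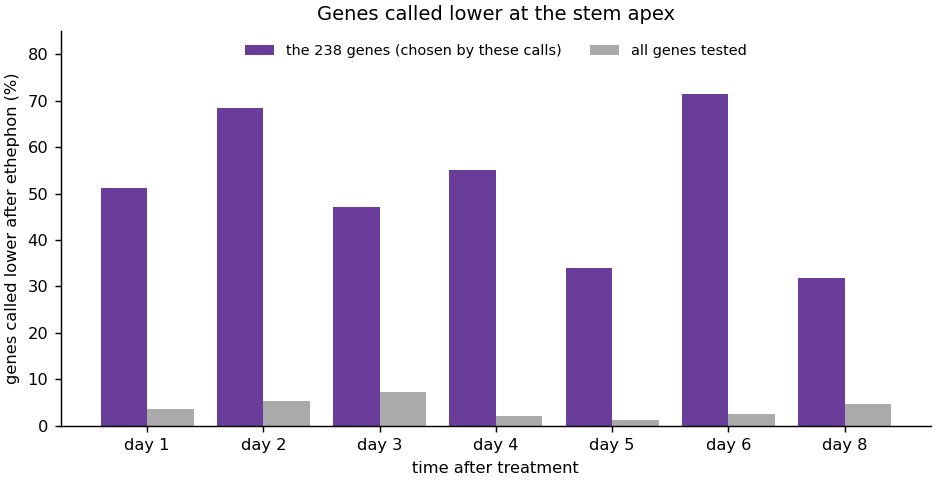
Share of genes called lower at the ethephon-treated apex (y axis, percent) by time after treatment (x axis), for the 238 genes and for all genes tested. The 238 genes were chosen by these calls; their share is highest on day 6 (71.4%) and day 2 (68.5%) and lowest on day 8 (31.9%).

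Library by library, the groups were most often separate on day 6. All 3 ethephon libraries lay below all 3 water libraries for 25 of the 238 genes at 6 h and for 104 on day 8. From day 1 to day 6 this held for 156, 189, 116, 189, 161 and 217 genes. The rule made its calls on these same libraries, so much of this separation is built in. The share of all genes separated in this way is not given. The reverse order was seen for 16 genes at 6 h, at most 7 from day 1 to day 6, and 22 on day 8. On day 3 the water-treated apices were the most spread, with median levels of 3.00 to 3.61 (log2 of CPM + 0.25). The day 3 count of calls was 87 without water replicate 1 and 132 without water replicate 3.

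Calls on every day were not seen. Of the 238, 144 were called lower in exactly 3 samplings, 57 in 4, 27 in 5, 10 in 6 and 0 in 7. Calls in 3 or more consecutive samplings were found for 98 genes, and 114 had a negative fold change in all 7 samplings from day 1. The commonest patterns among 60 were calls on days 1, 2 and 6 (17 genes), on days 2, 3 and 6 (16 genes) and on days 1, 2 and 3 (15 genes). Most genes, 192, were called both within days 1 to 3 and within days 4 to 8, while 31 were called only on days 4 to 8 and 15 only on days 1 to 3. The last call fell on day 6 for 112 genes and on day 8 for 76.

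The genes also differed in the day of their first call. A first call is where the limits were passed and need not be the start of a fall. Genes first called on day 2 already had a median log2 fold change of -0.40 on day 1. Those first called on day 3 had -0.62 on day 2. The first call came on day 1 for 122 genes and on day 2 for 62. It came on day 3 for 23 genes, on day 4 for 28 and on day 5 for 3. The 122 early genes had a median log2 fold change of -1.40 on day 1 and of -0.07 on day 8. The 62 genes first called on day 2 reached -1.37 on day 3 and were at -0.67 on day 8. Those first called on day 3 reached -1.90 that day and were at -1.34 on day 8. The 28 genes first called on day 4 had medians of 0.22 at 6 h, -1.46 on day 4 and -1.28 on day 8. These groups were built from the calls that the rule used, and a gene first called late could reach its 3 calls only on the later days, so the rule itself shapes the day 8 medians. The lowest fold change of a gene fell on day 2 for 64 genes (26.9%), on day 3 for 52 (21.8%) and on day 5 for 7 (2.94%).

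**Figure D3:**
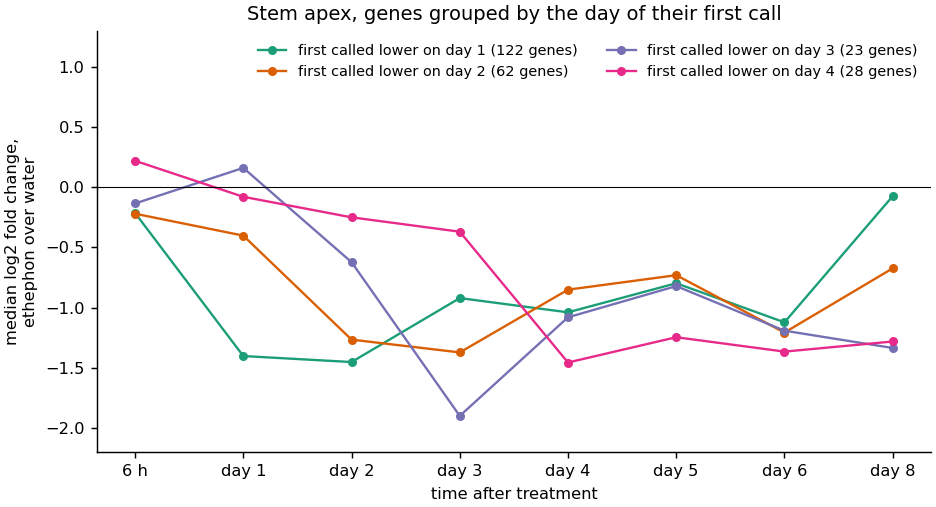
Median log2 fold change at the stem apex, ethephon over water (y axis), by time after treatment (x axis), for the genes grouped by the day of their first call; the 3 genes first called on day 5 are not drawn. The genes first called on day 1 are at -0.07 on day 8, and those first called on day 3 or day 4 at -1.34 and -1.28, an order that the rule itself shapes.

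At the limits of the rule the genes graded into the rest. Averaged over days 1 to 8, the log2 fold changes of the 238 genes had a median of -0.95 and ran from -2.95 to -0.36, the lowest of them -2.23 with values against libraries at 0 set to their bound. Those called in exactly 3 samplings had a median of -0.85, against -0.69 for 362 genes that were called in 2 samplings and otherwise met the rule. The call that completed the rule had an adjusted p of up to 0.0496 inside, and the nearest gene outside had 0.0506 (edgeR quasi-likelihood fit, adjusted by Benjamini-Hochberg). A further 124 genes met the apex part but were called in the leaf base, and 23 met all of it but were called at the apex at 6 h.

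The ethephon-treated apices of 6 h, day 1 and day 5 were in one lane with the water-treated apices of days 6 and 8. Of the pairings within that lane, ethephon day 5 against water day 6 was the closest in time and the one compared. There 131 of the 238 genes (55.0%) were called lower, where 2.02% of all genes were, and 0 were called higher by edgeR, where 3.78% of all genes were. The median log2 fold change was -1.11 and 237 genes were below 0. These libraries had been used by the rule in other pairings, and 1 day separates them. Water day 6 against water day 5, which changes the lane and the day with no ethephon, gave a median of 0.26. The median of all genes there was 0.01, and 46 of the 238 genes were below 0. By edgeR, 0 of the 238 genes were called, while 0.00454% of all genes were called higher and 0.0182% lower. At an unadjusted edgeR p under 0.05 there were 59 of the 238, and the share of all genes at that limit is not given. By DESeq2, 1 of the 238 was called lower.

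At the leaf base the medians of the genes were nearly equal between treatments. Their median level was 3.10 ± 0.11 in ethephon-treated and 3.02 ± 0.14 in water-treated leaf bases at 6 h, and 3.22 ± 0.12 after ethephon and 3.24 ± 0.18 after water on day 4. The median log2 fold change was -0.01 at 6 h, and 0.03, -0.03, -0.09 and -0.02 from day 1 to day 4. No call at the leaf base was a condition of the rule. It did not hold the values at 0. An uncalled fold change of 2-fold or more in at least 1 leaf base sampling was seen downwards for 34 genes and upwards for 34. Some named genes missed the call only by the 2-fold limit. Among them were Aco008567 (log2 0.99 at 6 h and -0.89 on day 3) and Aco011302 (-0.62 on day 3). Aco000264 and Aco000611 did so at 6 h (-0.81 and -0.91).

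Among the named genes, the one low for longest was Aco000611, a nuclear transcription factor Y subunit C-1 on linkage group 12 (661716 to 666442, minus strand, 6 exons). NF-YC proteins are part of a trimer that binds CCAAT boxes, and in Arabidopsis some act in flowering time together with CONSTANS. At 6 h the ethephon libraries had 14.6, 15.1 and 18.6 CPM and the water libraries 12.1, 14.7 and 26.8 CPM. Day 2 gave 5.39, 6.10 and 7.48 CPM after ethephon, against 14.1, 17.6 and 18.3 CPM after water. On day 8 it was 6.01, 7.69 and 10.2 CPM after ethephon, against 33.0, 35.1 and 35.9 CPM after water. The groups overlapped at 6 h and were separate on every later day, with log2 fold changes of -0.53 ± 0.19 (SE) on day 1 and -1.38 ± 0.24 on day 2. The fold change was -1.95 ± 0.22 on day 6 and -2.10 ± 0.22 on day 8. Calls were made in 6 samplings, day 2 to day 8, and each held with RLE factors, without genes under 1 CPM, with DESeq2, with a replicate block and without any 1 replicate. Ethephon-treated apices had 5.18 to 9.34 CPM on days 2 and 3 and 5.36 to 10.2 CPM on days 5, 6 and 8. Water-treated apices had 14.1 to 18.8 CPM and 26.4 to 39.7 CPM on those days. On day 4 the ranges were 5.97 to 14.9 CPM after ethephon and 22.6 to 27.2 CPM after water. Day 1 gave 17.7 to 24.5 CPM after ethephon and 26.4 to 32.5 CPM after water.

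Aco004156, on linkage group 15 (985319 to 987459, plus strand), has no name in the sources and had the largest mean fall among the genes with 6 calls. Day 3 gave 1.81, 4.68 and 8.27 CPM after ethephon, against 44.3, 63.3 and 82.9 CPM after water, a log2 fold change of -3.58 ± 0.30. On day 8 the levels were 37.8, 38.4 and 43.4 CPM after ethephon and 125, 132 and 144 CPM after water (-1.72 ± 0.14). The groups did not overlap at any apex sampling, 6 h included, where the log2 fold change was -0.85 ± 0.22. The day 4 value was the smallest (-0.59 ± 0.13), and the day 5 call (-1.0037) was lost without ethephon replicate 2 (-0.94), ethephon replicate 3 (-0.9987) or water replicate 3 (-0.96).

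In 3 named genes the low point was also day 3. Aco000766, an S-adenosyl-L-methionine-dependent methyltransferase of an enzyme superfamily that moves methyl groups onto many kinds of substrate, lies on linkage group 2 (16834741 to 16847863, plus strand). On day 1 it had 251, 298 and 337 CPM after ethephon and 241, 267 and 281 CPM after water. On day 3 it had 15.3, 16.1 and 27.4 CPM after ethephon, against 136, 208 and 290.2 CPM after water (log2 fold change -3.41 ± 0.25). On day 4 the groups overlapped again, with 69.2, 99.1 and 114 CPM after ethephon and 92.5, 94.5 and 102 CPM after water. It was called lower on days 2, 3 and 6, and the day 6 call (-1.05) was lost without water replicate 3 (-0.96).

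Aco011302, a bidirectional sugar transporter, belongs to a family that lets sugars pass membranes down their gradient (linkage group 1, 12586879 to 12591888, minus strand). At 6 h it had 62.7, 88.1 and 131 CPM after ethephon and 53.6, 84.3 and 98.3 CPM after water. On day 3 the values were 6.40, 8.55 and 9.47 CPM after ethephon, against 45.3, 49.5 and 61.5 CPM after water. That difference, a log2 fold change of -2.67 ± 0.20, was the largest of its 3 calls. The other 2 calls stood at the 2-fold limit: day 5 (-1.02) was lost without ethephon replicate 1 (-0.85), water replicate 2 (-0.98) or water replicate 3 (-0.88), and day 8 (-1.06) without ethephon replicate 1 (-0.74) or water replicate 3 (-0.98).

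Aco008567, named after the Arabidopsis mutants with maternal effect embryo arrest (linkage group 9, 801304 to 803596, minus strand), had 11.6, 12.7 and 13.3 CPM on day 3 after ethephon, against 48.3, 55.2 and 62.0 CPM after water (log2 fold change -2.15 ± 0.18). On day 8 it had 12.9, 15.4 and 21.9 CPM after ethephon and 38.3, 42.6 and 45 CPM after water (-1.30 ± 0.18). On day 1 the groups overlapped and the fold change was 0.48 ± 0.20. The day 6 call (-1.10) was lost without ethephon replicate 2 (-0.95) or water replicate 3 (-0.98).

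**Figure D4:**
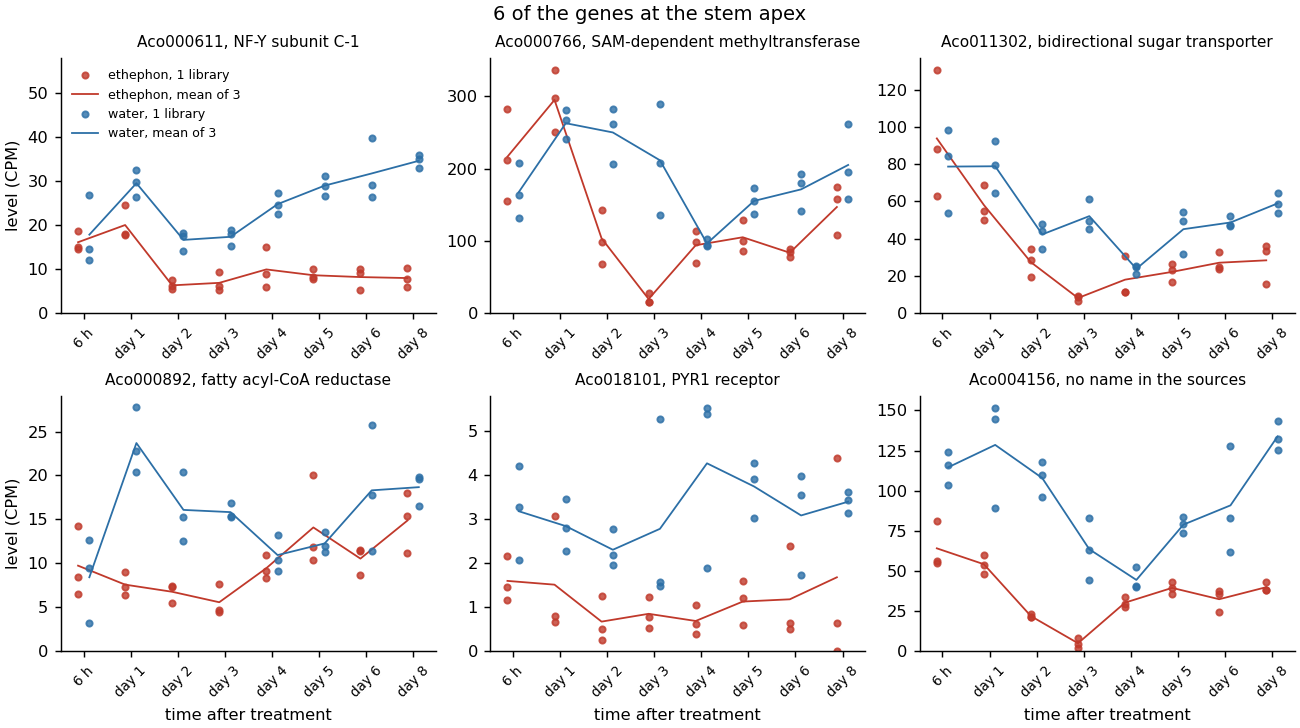
Level in CPM (y axis, from 0) of 6 of the 238 genes at the stem apex by time after treatment (x axis); points are libraries and lines join the means of 3. Aco000766, Aco011302 and Aco004156 are lowest after ethephon on day 3, while Aco000611 stays at 5.18 to 14.9 CPM from day 2 to day 8.

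Members with a part in hormone synthesis or perception had low counts. Gibberellins are growth hormones whose active forms depend on GA20-oxidases, which make them, and on GA 2-oxidases, which remove them, and Aco002580 (linkage group 4, 556361 to 560475, minus strand) is called by both names in the sources. On day 1 it had 2.84, 3.00 and 3.21 CPM after ethephon, above the 0.568, 1.39 and 2.42 CPM after water. On day 3 it had 0, 0 and 0.267 CPM after ethephon, against 1.65, 1.89 and 2.21 CPM after water, from at most 2 counts in an ethephon library. On day 8 no ethephon library had a count, while the water libraries had 1.64, 1.68 and 1.93 CPM, and at the depth of those ethephon libraries no fold can be given. The day 5 call was lost without ethephon replicate 1 (log2 -2.46), water replicate 2 (-2.33) or water replicate 3 (-2.67). The day 6 call was lost when any 1 of the 6 libraries except ethephon replicate 3 was left out (-3.33 to -2.71), and with a replicate block (-3.25).

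Abscisic acid, a hormone of stress and dormancy, binds receptors of the PYR1 type, which then inhibit certain protein phosphatases 2C. The PYR1 receptor gene Aco018101 (linkage group 11, 8188136 to 8188753, plus strand, 1 exon) had 0.388, 0.612 and 1.05 CPM on day 4 after ethephon, against 1.89, 5.38 and 5.52 CPM after water (log2 fold change -2.74 ± 0.51). On day 5 it had 0.584, 1.2 and 1.59 CPM after ethephon and 3.03, 3.91 and 4.28 CPM after water (-1.74 ± 0.46). On day 8 one ethephon library had 4.39 CPM and the others 0 and 0.641 CPM, so that the groups overlapped. The day 3 call (-1.82) rested on water replicate 1 at 5.28 CPM and was lost without it (-0.94), as well as without ethephon replicate 2 (-1.82) or ethephon replicate 3 (-1.49), and with DESeq2 (-1.79).

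Aco000771 is a short gene of the protein phosphatase 2C family (linkage group 2, 16805711 to 16806271, minus strand), and the sources do not say whether it is of the kind that PYR1 receptors bind. It was called lower in 5 samplings. On day 6 it had 0.920, 1.32 and 2.57 CPM after ethephon, against 5.25, 6.03 and 8.64 CPM after water (log2 fold change -2.09 ± 0.38). At 6 h the values were 2.20, 2.44 and 5.81 CPM after ethephon and 1.54, 3.59 and 3.68 CPM after water, which overlapped. Of the other calls, days 1 and 2 were lost without water replicate 3 (log2 -1.42 and -1.19), day 4 without water replicate 1 (-1.37) and day 5 without water replicate 2 (-1.62).

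Aco012274, named only as an auxin response gene (linkage group 1, 3542569 to 3544987, minus strand), had 2.22, 2.56 and 3.74 CPM on day 2 after ethephon, against 7.09, 8.38 and 9.69 CPM after water (log2 fold change -1.57 ± 0.32). It was also called lower on days 1 (-1.47 ± 0.38) and 4 (-1.39 ± 0.29). The study gives this identifier in a figure caption and a near-identical one in its text for the auxin response, so the role is uncertain. On day 3 the groups overlapped, and on day 8 the ethephon libraries had 6.34, 8.98 and 9.24 CPM, all above the water libraries at 5.43, 5.77 and 6.29 CPM.

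Both named genes of fatty acid metabolism were low in different spans. Aco000892 encodes a fatty acyl-CoA reductase, of the enzymes that make the fatty alcohols of wax (linkage group 2, 15862822 to 15871310, minus strand), and since its exons overlap another gene its counts are uncertain. On day 1 it had 6.41, 7.34 and 8.96 CPM after ethephon, against 20.4, 22.8 and 27.8 CPM after water (log2 fold change -1.62 ± 0.24). It was called lower on days 1, 2 and 3, and from day 4 to day 8 its fold change was between -0.82 and 0.19. Aco000289 encodes a long-chain-fatty-acid-CoA ligase, which activates fatty acids for use (linkage group 12, 2968030 to 2974189, minus strand), and was called lower on days 4, 5, 6 and 8 only.

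On day 4 Aco000289 had 9.18, 10.5 and 18.4 CPM after ethephon and 24.4, 26.7 and 37.2 CPM after water (-1.24 ± 0.20), and on day 6 it had 4.07, 4.23 and 5.28 CPM after ethephon and 8.90, 10.4 and 14.1 CPM after water (-1.30 ± 0.25). At 6 h the order was the opposite, with 15.2, 16.8 and 30.8 CPM after ethephon, all above 10.1, 10.3 and 11.0 CPM after water. Its day 4 call was lost without ethephon replicate 3 (-0.96), that of day 5 without ethephon replicate 1 (-0.91) or water replicate 1 (-0.83), and that of day 8 without ethephon replicate 3 (-0.75), water replicate 1 (-0.95) or water replicate 3 (-0.97).

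Aco000480 encodes phosphomethylpyrimidine synthase, which makes the pyrimidine part of thiamine (linkage group 12, 1572822 to 1578404, plus strand). On day 6 it had 6.92, 7.07 and 7.91 CPM after ethephon, against 19.9, 22.2 and 22.8 CPM after water (log2 fold change -1.58 ± 0.18). Its calls fell on days 4, 5 and 6, and the one of day 5 (-1.09) was lost without ethephon replicate 2 (-0.90) or water replicate 1 (-0.89). In the water-treated apices it had 5.78 to 6.44 CPM at 6 h and 17.7 to 21.3 CPM on day 4, while the ethephon-treated apices had 5.30 to 9.20 CPM at 6 h and 5.87 to 7.73 CPM on day 4.

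Of the genes with an uninformative name, Aco000138, with a domain of unknown function DUF300 (linkage group 12, 4319064 to 4324879, plus strand), had 0.487, 1.28 and 1.85 CPM on day 8 after ethephon, from at most 4 counts, against 5.67, 6.02 and 6.50 CPM after water (log2 fold change -2.29 ± 0.47). Its calls on day 2 (-1.16) and day 6 (-1.14) were lost without 1 library: day 2 without ethephon replicate 1 (-0.94) or water replicate 2 (-0.97), and day 6 without ethephon replicate 1 (-1.17), ethephon replicate 2 (-0.94), water replicate 1 (-0.95) or water replicate 3 (-1.04). Aco000264, a hypothetical protein (linkage group 12, 3254290 to 3258620, minus strand), had 42.1, 51.3 and 52.7 CPM on day 2 after ethephon and 105, 122 and 132 CPM after water (-1.27 ± 0.13).

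The lowest mean of fitted log2 fold changes over days 1 to 8 (-2.95) was that of Aco003818, which has no name in the sources (linkage group 15, 3809897 to 3811762, plus strand). Its day 8 value was fitted against libraries at 0, and with such values set to their bound its mean was -2.04, below which 3 other genes lay. On day 4 it had 0.245, 0.351 and 0.388 CPM after ethephon, at most 2 counts a library, against 4.41, 5.21 and 6.15 CPM after water. On day 8 no ethephon library had a count, and the water libraries had 0.511, 3.14 and 3.56 CPM, which at this depth makes the level at least 1.25-fold lower after ethephon. The floor behind that bound is 3 counts in the shallowest ethephon library. Its day 3 call (log2 -1.90) was lost without ethephon replicate 1 (-1.55), ethephon replicate 3 (-1.83) or water replicate 2 (-1.505).

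Other genes of the same pathways did not all move with these. The lists were taken from genes the study named on the same samples, so they are not independent evidence of a direction. Aco018101, Aco002580 and Aco011302 are counted in their lists, and the rule chose them by these calls. That part of the counts and medians is therefore fixed by the rule. Of 4 PYR1 receptor genes, Aco018101 included, 2 were called lower and 0 higher on day 4, where 2.12% of all genes were called lower and 3.53% higher, with a median log2 fold change of -1.14 against -0.02 for all genes. On the other days from day 1, 0 to 2 of the 4 were called lower, with 0 on days 1 and 8, and 1 was called higher on days 2, 3 and 6. Of 10 gibberellin genes, Aco002580 included, 4 were called lower and 2 higher on day 3 (median -0.50), where 7.19% of all genes were called lower and 7.2% higher, and 5 lower and 2 higher on day 8 (median -0.82). Of 13 sugar genes, which include Aco011302, 7 were called lower and 5 higher on day 3 (median -2.06) and 1 lower and 6 higher on day 5 (median 0.44). Of 14 auxin genes, a list without Aco012274, 2 were called lower and 9 higher on day 3 (median 1.40). The share called on day 5 was 1.23% lower and 3.83% higher among all genes, and on day 8 it was 4.73% lower and 2.82% higher.

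The difference between the tissues at 6 h was not itself part of the rule, but it is not independent of it. The rule used the same libraries, and it asks for enough counts at the apex to be called lower and for no call in the leaf base, which is easier to meet for a gene with few counts there. The tissue shares, and the tissue differences of single genes below, are therefore a description with no test. In ethephon-treated plants, 53 of the 238 genes (22.3%) were called higher at the apex than at the leaf base, where 9.4% of all genes and 11.8% of genes of at least 1 CPM on average in water-treated apices were. In water-treated plants it was 66 genes (27.7%), against 13.7% of all genes and 17.3% of genes of at least 1 CPM. These calls come from the edgeR quasi-likelihood fit with the limits given above. Called lower at the apex were 24 genes (10.1%) in ethephon-treated plants, with 11.1% of all genes and 11.0% of those of at least 1 CPM, and 31 (13%) in water-treated plants, with 19.3% of all genes and 19.1% of those of at least 1 CPM. In both treatments 43 genes were called higher and 19 lower, and 0 were called in opposite directions. The share of all genes called in both treatments is not given, so these counts are no measure of a trait of the 238 genes. The tissues shared no lane, and lane and tissue cannot be told apart.

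**Figure D5:**
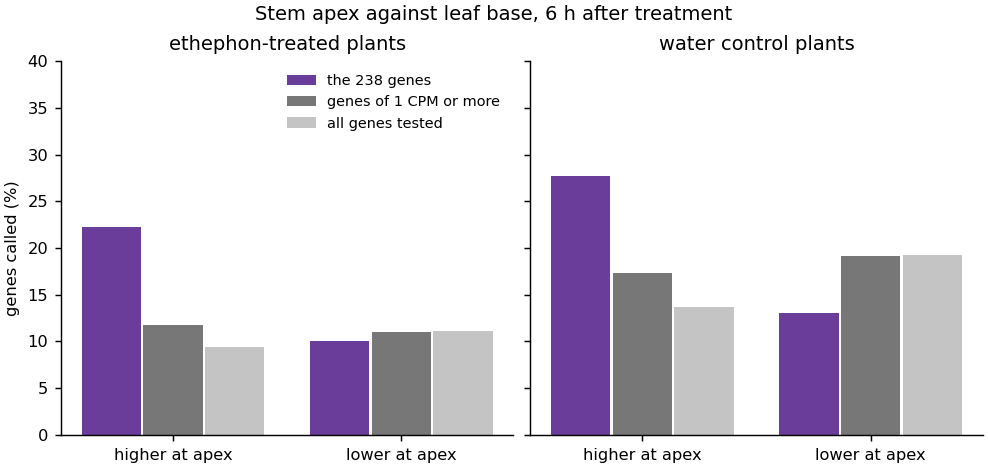
Share of genes called higher or lower at the stem apex than at the leaf base 6 h after treatment (y axis, percent), in ethephon-treated and in water control plants, for the 238 genes, genes of at least 1 CPM and all genes tested. The 238 genes are called higher in 22.3% and 27.7% and lower in 10.1% and 13%.

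Some of the genes were higher at the apex by a wide margin. In water-treated plants at 6 h, 21 of the 238 genes were called higher at the apex by a log2 difference of at least 3. By as much, 1 was called lower. The share of all genes at this limit is not given, so these counts are no measure of a bias of the 238 genes. Aco000766 had 131, 164 and 207 CPM at the apex and 3.47, 3.6 and 3.82 CPM at the leaf base (log2 difference 5.51 ± 0.27). Aco004156 had 104, 116 and 124 CPM at the apex and 5.55, 6.45 and 6.60 CPM at the leaf base (4.18 ± 0.23). Aco000138 also was higher at the apex (4.79 ± 0.45), from at most 6 counts in a leaf base library.

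Others of the 238 genes had more RNA in the leaf base than at the apex. The 1 gene beyond a log2 difference of 3 in that direction was Aco000289 (-3.89 ± 0.27). It had 10.1, 10.3 and 11.0 CPM at the water-treated apex and 102, 167 and 194 CPM at the water-treated leaf base. The sugar transporter Aco011302 had 53.6, 84.3 and 98.3 CPM at the apex and 455, 466 and 487 CPM at the leaf base (-2.58 ± 0.23). PYR1 receptor Aco018101 was lower at the apex as well (-2.06 ± 0.43), as was NF-YC gene Aco000611 (-1.29 ± 0.31). After ethephon the difference of Aco000611 was -0.50 ± 0.26 and was not called.

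The tissue calls are also given by the day of first call. In water-treated plants at 6 h, it was 20 of 122 (16.4%) among genes first called lower on day 1, 28 of 62 (45.2%) among those first called on day 2, 10 of 23 (43.5%) for day 3 and 8 of 28 (28.6%) for day 4, where 13.7% of all genes and 17.3% of genes of at least 1 CPM were called higher. Called lower at the apex were 14 (11.5%) of the day 1 genes, 6 (9.68%) of the day 2 genes, 4 (17.4%) of the day 3 genes and 7 (25%) of the day 4 genes, where 19.3% of all genes and 19.1% of those of at least 1 CPM were. The difference between these groups was not tested.

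In structure, the 238 genes were shorter and less abundant than most expressed genes. Their median summed exon length was 1042 bases, against 1584 bases for the 17051 genes of at least 1 CPM on average in water-treated apices, and the median number of exons was 5 in both. The median level in water-treated apices was 10.8 CPM for the 238 genes and 23.4 CPM for the 17051. Per kilobase of exon it was 11.3 and 14.7 CPM. Levels of single genes ran from 0.983 to 3335 CPM. The exons of 30 of the 238 genes (12.6%) overlap another gene, against 7.92% of the 17051, and counts of overlapping or antisense genes may be shared because strand was not used in counting.

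The genes were spread over the genome. On 24 linkage groups lay 214 of the 238, with at most 16 on one, and the other 24 lay on scaffolds. In 6 pairs the genes were direct neighbours, and 1 of these pairs had overlapping exons. The closest pair without overlap was on linkage group 22, at 3636126 to 3636799 and 3638667 to 3639340, each with 588 bases of exon. Elsewhere, a gene on linkage group 4 and one on a scaffold both had 1346 bases in 4 exons. Their levels in water-treated apices were 109 and 104 CPM. Reads of several positions were counted, so copies of a gene could share reads and need not be separate members. Whether such genes are copies was not tested.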

How the data were processed

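The data are 78 deposited tables of raw counts per gene, 3 libraries in each of 26 groups (2 tissues, 2 treatments, 8 samplings at the apex and 5 at the leaf base). The labels number the samplings, and the times are those of the study's text. The authors made the counts by trimming with Trimmomatic 0.36, aligning with HISAT2 2.0.5 and counting read pairs over exons with featureCounts 1.6.0, with reads of several positions counted and no strand setting, although the library kit keeps strand. Coordinates are those of the files, which use version 3 of the pineapple genome, 1-based.

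Each comparison was fitted alone on its 6 libraries with edgeR 4.0.16 in R 4.3.3 (TMM, quasi-likelihood test, genes with at least 1 count, Benjamini-Hochberg over them). A gene was called where the adjusted p was under 0.05 and the fold change 2 or more. The SE of a log2 fold change came from the F statistic. For levels, counts were scaled to CPM with TMM factors of the 78 libraries together, and log2 levels add 0.25 CPM. Tables were made with pandas 2.3.3. The functions were tested on simulated data. Replicates differed by more than sampling noise in all 78 pairs, so each counted once. The replicates are pools of different plants, and p-values measure the spread between such pools.

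The genes and lists were chosen with earlier results of these data known. Genes were named where a source gives a name or role, and of those without a name the one with the largest mean fall among genes called in 6 samplings and the one with the lowest mean of fitted changes of all. The planned list of named genes was longer, but the files pair no identifiers with names, so other unnamed genes are given as counts. Names came from the study's text and from 858 entries of a shortened table. 1 gene is not reported here. Alternatives were RLE factors, leaving out genes under 1 CPM, DESeq2 1.42.0, a replicate block, leaving out each replicate, other limits on the fold change and CPM from library size alone. Chosen after seeing the data were leaving out day 8, a background of genes of at least 1 CPM and bounds for genes at 0. The total per library, 1418697 to 13180667 with a median of 5364715.5, sets the precision: 1 count is worth most in the ethephon-treated apices of day 8.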

Additional observations from a re-analysis of the deposited data

Results flagged for a closer look

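A few of the named genes had a sampling at which all 3 ethephon libraries lay above all 3 water libraries, while at other apex samplings the order was the reverse. The difference between such samplings was not tested, and none of these values passed the call. Aco000138 (DUF300) had a log2 fold change, ethephon over water, of 1.62 in leaf bases sampled at 6 h and 1.45 there on day 1. Aco008567 (maternal effect embryo arrest) had 0.99 in leaf bases sampled at 6 h and 0.63 there on day 4.

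At the apex itself, Aco000289 (long-chain-fatty-acid-CoA ligase) had 1.01 at 6 h, Aco002580 (named as GA20-oxidase and as GA 2-oxidase) had 1.09 on day 1, and Aco012274 (auxin response gene) had 0.51 on day 8, with 0.57 at the leaf base on day 3. Further leaf base values of this kind were 0.66 for Aco000892 (fatty acyl-CoA reductase) on day 1, 0.75 for Aco018101 (PYR1 receptor) on day 3 and 0.73 for Aco004156 at 6 h.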

How the results depend on the processing

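The rule gave 238 genes, and 234 with RLE factors, 235 without genes under 1 CPM, 179 with DESeq2 and 201 with day 8 left out; these lists shared 231, 216, 173 and 195 genes with the 238. With no limit on the fold change it gave 1011 genes, 170 of them among the 238, since the rule also asks for no call at 6 h and in the leaf base, and with a log2 limit of 2 it gave 30, 17 of them shared. Leaving out 1 replicate of every comparison gave 185 to 221 genes, of which 151 to 166 were shared. Without 1 replicate, the count of the 238 genes called lower was 99 to 110 on day 1, 139 to 159 on day 2, 87 to 132 on day 3, 106 to 125 on day 4, 49 (without water replicate 1) to 81 on day 5, 123 to 153 on day 6 and 63 to 74 on day 8, and 96 to 125 in the one-lane pairing. Between the tissues it was 45 to 55 higher and 19 to 35 lower after ethephon, and 54 to 65 higher and 22 to 31 lower after water. In water day 6 against water day 5, 0 to 1 genes were called higher and 0 to 1 lower without 1 replicate, and DESeq2 called 1 lower. The cause of these shifts was not tested. No result reversed. Of 57 calls of the named genes at the apex, 38 held with RLE factors, without genes under 1 CPM, with DESeq2, with a replicate block and without any 1 replicate, and 19 were lost under at least 1 of these; the limits on the fold change were applied to the rule only. With genes at 0 set to their bound, the median log2 fold change was -1.03 on day 1, -1.01 on day 3 and -0.42 on day 8.

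The plot was divided into 3 replications that each held both treatments, but the sources used here do not tie the library numbers to them. No pairing was seen in the correlations: over 45 same-numbered pairs in 15 comparisons the correlation of deviations was -0.331 to 0.217, 0 comparisons had all pairs above 0.1, and 17 of 45 libraries correlated best with their own number. A replicate block gave 223 genes, 210 of them shared, called 2 genes higher and 1 lower in water day 6 against water day 5, and moved no other count by over 1.5 times. Among the calls of the named genes it ended 1, that of Aco002580 on day 6 (log2 -3.25, adjusted p = 0.0984 with edgeR). Depth limits the low genes most, since a gene of 1 CPM has 1 or 2 counts in an ethephon-treated apex of day 8.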
